A study of Mus musculus with 6 samples.

Results

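The inner hair cell passes sound to the auditory nerve through ribbon synapses, and 8 genes that build this synapse were followed here from young to old mice. The genes were Otof, Slc17a8, Cacna1d, Cacnb2, Cabp2, Ctbp2, Bsn and Rims2, out of 25832 genes in the transcript table, of which 19649 were tested. They were listed by name for their known roles at the synapse, with earlier results of these data known. Each gene was taken as the sum of its annotated transcripts, and the transcripts of Ctbp2 were also read separately.

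RNA came from the dissected basilar membrane of the cochlea of C57BL/6 mice at 1 month (young) and 12 months (old) of age. There were 3 samples per age, and each sample mixed the tissue of 3 mice. Libraries were made with a directional kit after removal of ribosomal RNA. C57BL/6 is a strain known to lose hearing early in adult life, and both groups were of this strain. Values were deposited as FPKM, the fragments of a transcript scaled to its length and to the mapped fragments of the library. The steps between low values gave back 12220000 to 15410000 fragments per sample. The 8 genes rested on between 47.4 fragments (Cabp2) and 891 fragments (Cacna1d) per sample, counted on transcripts of at least 500 nt.

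At a ribbon synapse, depolarization opens Cav1.3 calcium channels beneath an electron-dense ribbon that holds a layer of vesicles. Calcium then drives the fusion of glutamate-filled vesicles, and glutamate acts on AMPA receptors of spiral ganglion neurons. Otoferlin is the calcium sensor for fusion and VGLUT3 (Slc17a8) loads the vesicles. Cav1.3 is formed by Cacna1d, with Cacnb2 as its auxiliary beta subunit and Cabp2 as a calcium-binding protein that limits channel inactivation. The ribbon is built largely of RIBEYE, a product of Ctbp2, and is anchored by bassoon (Bsn). RIM2 (Rims2) helps gather calcium channels at the active zone.

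Ctbp2 is read by sequence first, because the ribbon protein and the transcriptional corepressor CtBP2 come from the same gene. RIBEYE starts at its own first exon, and the CtBP2 transcripts start at exons farther upstream and join the same downstream exons. The lines below give the coding starts in mouse build GRCm38 (GENCODE M21), on the minus strand of chromosome 7. Start codons are in capitals in the first 3 lines. The last line gives the end of the RIBEYE exon in lower case and the start of the shared exon in capitals.
RIBEYE, 988 codons: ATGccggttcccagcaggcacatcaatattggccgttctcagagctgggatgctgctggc
CtBP2, 445 codons: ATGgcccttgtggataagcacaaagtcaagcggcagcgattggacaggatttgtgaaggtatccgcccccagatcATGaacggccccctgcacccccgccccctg
CtBP2, 420 codons: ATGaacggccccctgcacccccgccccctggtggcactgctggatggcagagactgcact
RIBEYE junction: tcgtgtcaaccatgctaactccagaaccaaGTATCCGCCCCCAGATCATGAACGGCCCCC
The start codon of RIBEYE is at chr7:133015202-133015204, within a first exon of 1731 nt that holds 1687 coding bases. The start codon of the 445-codon transcript is at chr7:133025768-133025770, in its exon 3. The start codon of the 420-codon transcript is at chr7:132999326-132999328, in the first shared exon, and is the second ATG in capitals in the 445-codon line, 75 nt or 25 codons downstream. It also lies in frame in RIBEYE, so the 3 full-length proteins share their C-terminal part.

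**Figure D1:**
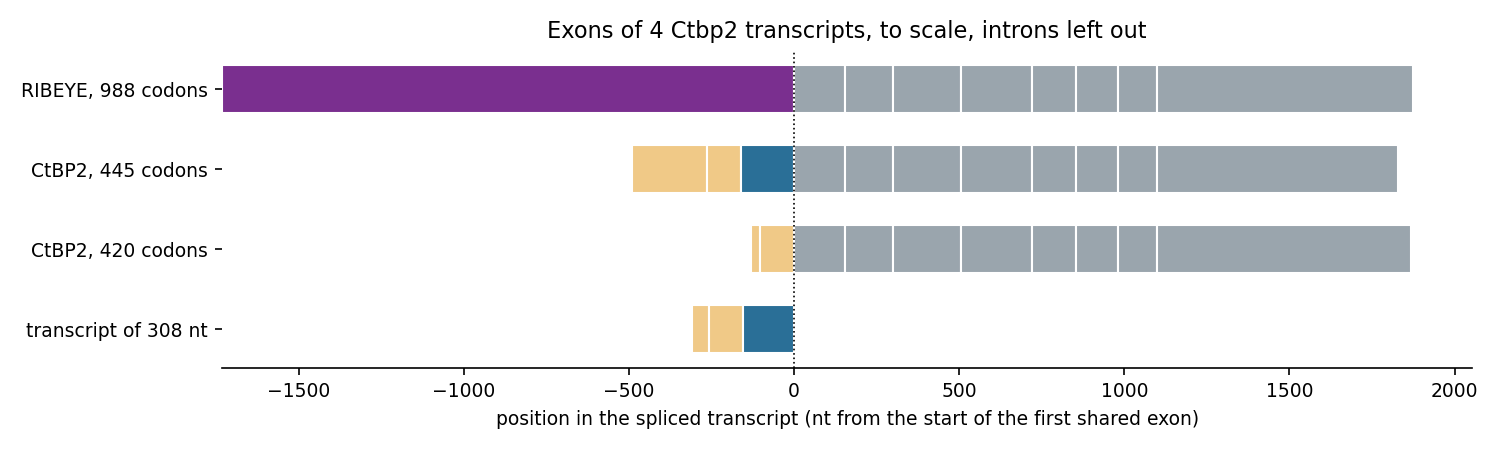
Exons of 4 Ctbp2 transcripts drawn to scale in nt, with introns left out and 0 at the start of the first shared exon. Purple marks the RIBEYE exon, blue the exon with the start codon of the 445-codon transcript, yellow other upstream exons and grey the shared exons (the last differs slightly in its end). The transcript of 308 nt holds upstream exons alone.

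The 250 bases upstream of the RIBEYE start site (RefSeq, GRCm38.p6, chr7:133015248-133015497, minus strand) are shown because this start site is separate from that of CtBP2. The dinucleotide CG, which reads the same on both strands, is in capitals.
RIBEYE upstream: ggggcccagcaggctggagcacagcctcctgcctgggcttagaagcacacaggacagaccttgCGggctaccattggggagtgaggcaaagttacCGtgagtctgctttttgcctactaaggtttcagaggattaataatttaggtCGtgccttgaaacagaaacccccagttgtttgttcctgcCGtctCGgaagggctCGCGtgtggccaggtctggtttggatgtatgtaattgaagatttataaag
This window held 7 CG, and 46.3% of 32851 windows of this length held as many or more, with a median of 6. The Slc17a8 window at the start of its longer transcript held 5 CG. In contrast, Bsn held 32, a number that 4.58% of windows reached, and the window at the start of the 655-codon Cacnb2 transcript held 30, reached by 5.94%. The other windows of these genes held 2 to 5 CG, except a Cacna1d window with 50, reached by 0.0944%, which lies at the start of neither Cacna1d transcript measured. Otof and Rims2 had no entry in the table of windows.

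Old mice had lower mean values than young mice for 7 of the 8 genes, and 1 of them passed the test (Cacnb2). The test was limma on log2(FPKM + 0.1) across all 19649 genes with a mean of at least 0.1 FPKM, with Benjamini-Hochberg adjustment and a threshold of 0.05. Lower calls made up 3.68% of all genes tested, and higher calls 5.41%. None of the 8 genes passed as higher in limma, and 1 gene was higher and 4 were lower at an unadjusted p under 0.05. The share of all genes or transcripts at that unadjusted threshold was not taken. Such counts, here and further below, therefore have no background to be read against. All 3 old samples lay below all 3 young samples for 4 of the 8 genes (Slc17a8, Cacnb2, Bsn and Rims2), against 16.0% of all genes. All 3 old samples lay above for 1 gene (Ctbp2), against 17.5%. The median log2 change of the 8 genes was -0.40, and that of all genes tested was 0.01. With 3 samples per age, an exact two-sided permutation test of 1 gene cannot go below p = 0.1. The labels do not say that the samples of a group came from separate litters or preparations, so p-values measure the spread between these pools.

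**Figure D2:**
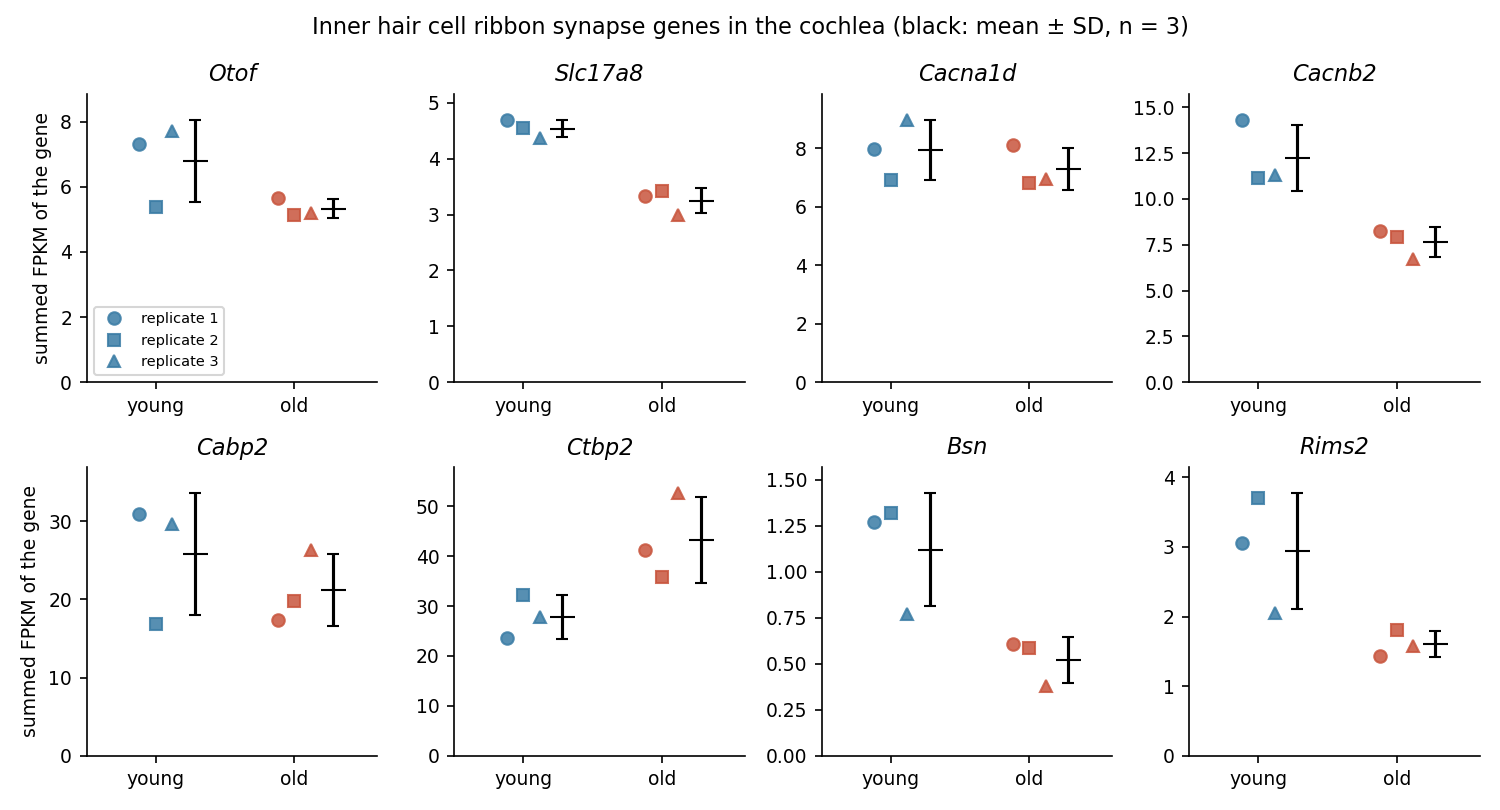
Summed FPKM of each of the 8 genes in every sample, young in blue and old in red, with each panel on its own axis from 0. Symbols give the replicate number and black bars the mean ± SD (n = 3). Old and young points are apart for Slc17a8, Cacnb2, Ctbp2, Bsn and Rims2, and overlap for Otof, Cacna1d and Cabp2.

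The genes of vesicle filling and fusion came first. Otof, at chr5:30367062-30461932 on the minus strand, was measured at 7.31, 5.37 and 7.72 FPKM in young 1, 2 and 3, and at 5.67, 5.13 and 5.19 FPKM in old 1, 2 and 3. The groups overlapped, since young 2 lay below old 1. The mean was 6.80 ± 1.26 FPKM in the young samples and 5.33 ± 0.295 FPKM in the old samples (SD, n = 3). The log2 change was -0.33 (SE 0.16, limma adjusted p = 0.237). Otof had 2 transcripts in the table that differ in length. The transcript of 1992 codons was at 5.66, 4.42 and 5.68 FPKM in young and 3.59, 3.64 and 3.84 FPKM in old mice, without overlap (log2 change -0.49, SE 0.16, limma adjusted p = 0.200). The transcript of 1997 codons had means of 1.55 FPKM in young and 1.64 FPKM in old mice.

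Slc17a8, at chr10:89574020-89621253 on the minus strand, encodes the vesicular glutamate transporter of inner hair cells. It was at 4.69, 4.55 and 4.38 FPKM in the young samples and 3.33, 3.42 and 2.99 FPKM in the old samples. Every old sample was below every young sample, and the spread among the young samples was the smallest, relative to its mean, of the 8 genes. The mean was 4.54 ± 0.158 FPKM in young and 3.25 ± 0.226 FPKM in old mice (SD, n = 3). The log2 change of -0.47 (SE 0.14) did not pass (limma adjusted p = 0.0723). Its 601-codon transcript carried most of the level, with means of 3.83 and 3.12 FPKM. The 417-codon transcript, which starts farther downstream, was at 1.05 and 1.08 FPKM in young 1 and 2 and below 0.001 FPKM in young 3 and old 1.

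The Cav1.3 channel was read through its pore subunit and a pair of regulators. Cacna1d, at chr14:30039939-30491455 on the minus strand, was at 7.97, 6.92 and 8.98 FPKM in the young samples and 8.11, 6.81 and 6.95 FPKM in the old samples. The groups overlapped throughout. The mean was 7.96 ± 1.03 FPKM in young and 7.29 ± 0.714 FPKM in old mice (SD, n = 3), with a log2 difference of -0.12 (SE 0.14, limma adjusted p = 0.606). Both transcripts in the table, of 2144 and 2166 codons, overlapped between the ages, with log2 changes of -0.30 and 0.08.

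Cacnb2, at chr2:14603088-14987908 on the plus strand, was the member that passed. It was at 14.3, 11.1 and 11.3 FPKM in the young samples and 8.26, 7.94 and 6.74 FPKM in the old samples, and the groups did not overlap. The mean fell from 12.3 ± 1.80 to 7.65 ± 0.803 FPKM (SD, n = 3), and the log2 difference was -0.67 (SE 0.14, limma adjusted p = 0.0320). Over the alternative settings the adjusted p ran from 0.0225 to 0.0981 and passed in 9 of 18, and with a sample left out it passed only without young 3. Part of this level sat on a transcript of 430 nt, at 5.32, 2.05 and 2.00 FPKM in young and 1.18, 1.76 and 0.00 FPKM in old mice, and FPKM of such short transcripts is divided by a small length. On transcripts of at least 500 nt alone, Cacnb2 was at 9.01, 9.07 and 9.32 FPKM in young and 7.08, 6.18 and 6.74 FPKM in old mice. That change was smaller and still passed (log2 change -0.45, SE 0.11, limma adjusted p = 0.0327). The longest coding form, of 655 codons, was lower in every old sample (6.52 and 4.52 FPKM, log2 change -0.54, limma adjusted p = 0.189), and the 611-codon form overlapped (2.18 and 2.02 FPKM).

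Cabp2, at chr19:4081578-4087340 on the plus strand, was at 30.9, 16.9 and 29.6 FPKM in the young samples and 17.4, 19.8 and 26.3 FPKM in the old samples. The lowest value of all was that of young 2, and the groups overlapped. The log2 change was -0.26 (SE 0.25, limma adjusted p = 0.550). Most of this FPKM was on a transcript of 387 nt (18.6 and 14.3 FPKM on average). On longer transcripts the means were 7.17 ± 1.52 FPKM in young and 6.86 ± 0.861 FPKM in old mice (SD, n = 3), with a log2 change of -0.05. These were mainly the 203-codon transcript (4.05 and 3.10 FPKM) and the 168-codon transcript (2.93 and 3.41 FPKM), and each overlapped between the ages.

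Among the scaffolds of the ribbon and active zone, Bsn and Rims2 had the lowest log2 changes of the 8 genes. Bsn, at chr9:108096022-108190384 on the minus strand, was at 1.27, 1.32 and 0.767 FPKM in the young samples and 0.605, 0.583 and 0.378 FPKM in the old samples. All old samples were lower, and young 3 was the lowest of the young. The mean was 1.12 ± 0.306 FPKM in young and 0.522 ± 0.125 FPKM in old mice (SD, n = 3). The log2 change of -0.96 (SE 0.34) did not pass (limma adjusted p = 0.118). The transcript of 3942 codons, which codes for full-length bassoon, was at 1.01, 0.981 and 0.747 FPKM in young and 0.497, 0.505 and 0.378 FPKM in old mice.

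Rims2, at chr15:39198261-39684372 on the plus strand, was at 3.05, 3.71 and 2.06 FPKM in the young samples and 1.44, 1.80 and 1.58 FPKM in the old samples. The old samples were all lower, and young 3 lay closest to them. The mean was 2.94 ± 0.832 FPKM in young and 1.61 ± 0.184 FPKM in old mice (SD, n = 3), with a log2 difference of -0.80 (SE 0.25, limma adjusted p = 0.0904). Without young 3 the log2 change was -1.03 and the limma adjusted p was 0.0404. Its transcripts of 1530 codons (2.21 and 1.3 FPKM) and 1572 codons (0.734 and 0.311 FPKM) each overlapped between the ages.

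Ctbp2, at chr7:132987563-133124354 on the minus strand, went the other way as a gene. Its sum was 23.5, 32.3 and 27.8 FPKM in the young samples and 41.2, 35.8 and 52.6 FPKM in the old samples, higher in every old sample. The mean was 27.9 ± 4.39 FPKM in young and 43.2 ± 8.60 FPKM in old mice (SD, n = 3), with a log2 difference of 0.62 (SE 0.17, limma adjusted p = 0.0582). This difference lay on 1 of its 12 transcripts. The transcript of 308 nt was at 0.00, 9.48 and 0.08 FPKM in young and 18.3, 12.2 and 31.8 FPKM in old mice (limma adjusted p = 0.185). Its length is barely above the 260 to 300 nt that the processing took off each transcript length, so a fragment there is worth more FPKM than on a long transcript. Its exon 3 lies within exon 3 of the 445-codon transcript and its exon 2 is shared with both CtBP2 forms, so reads on these exons could be given to either. The part of this in the values below was not tested. On transcripts of at least 500 nt the sign turned. Ctbp2 then stood at 24.7 ± 2.66 FPKM in young and 22.4 ± 1.42 FPKM in old mice (SD, n = 3), with overlap and a log2 difference of -0.13 (SE 0.10, limma adjusted p = 0.411).

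The 3 full-length transcripts of Ctbp2 did not move together. RIBEYE was at 1.11, 1.03 and 0.827 FPKM in the young samples and 0.506, 0.585 and 0.486 FPKM in the old samples. Every old sample was below every young sample. The mean was 0.989 ± 0.144 FPKM in young and 0.525 ± 0.0523 FPKM in old mice (SD, n = 3), with a log2 change of -0.79 (SE 0.38) that did not pass (limma adjusted p = 0.351). Behind these values were an estimated 33.6 to 47.8 fragments per young sample and 20.8 to 30.1 per old sample.

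The 445-codon CtBP2 transcript was the only member transcript that passed. It was at 13.1, 11.6 and 12.8 FPKM in the young samples and 7.61, 7.15 and 7.77 FPKM in the old samples. Its mean fell from 12.5 ± 0.755 to 7.51 ± 0.323 FPKM (SD, n = 3), with a log2 difference of -0.72 (SE 0.10, limma adjusted p = 0.0441). It no longer passed when any 1 sample was left out. The 420-codon transcript was at 4.47, 6.69 and 7.08 FPKM in the young samples and 10.3, 13.2 and 10.8 FPKM in the old samples, higher in every old sample (log2 change 0.92, SE 0.20, limma adjusted p = 0.0882). The summed FPKM of all 3 was 19.5 ± 1.03 in young and 19.5 ± 1.27 in old mice (SD, n = 3), and the groups overlapped (exact permutation p = 0.9).

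The other 8 Ctbp2 transcripts in the table were short. Those of 628 nt (2.35 FPKM in young and 0.246 FPKM in old mice), 659 nt (0.773 and 0.137 FPKM), 762 nt (1.57 and 1.46 FPKM) and 557 nt (0.420 FPKM in young mice and under 0.001 in old mice) overlapped between the ages. The transcript of 844 nt was higher in every old sample (0.0319 and 0.838 FPKM, limma adjusted p = 0.143). Those of 598, 752 and 920 nt had a mean below 0.1 FPKM and were not tested.

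As shares of those 3 full-length forms, RIBEYE made up 5.93, 5.34 and 4.0% in young mice and 2.74, 2.80 and 2.54% in old mice. The 445-codon form made up 70.1, 60.1 and 61.7% in young mice and 41.2, 34.2 and 40.7% in old mice. The 420-codon form made up 24.0, 34.6 and 34.2% in young mice and 56.0, 63.0 and 56.7% in old mice. The ages did not overlap in any of these 3 shares (exact permutation p = 0.1 each, the smallest possible). The planned main measure was the share of all Ctbp2 transcripts. With it the 420-codon form made up 19.0, 20.7 and 25.4% in young mice and 25.1, 36.7 and 20.6% in old mice. The ages thus overlapped for the 420-codon form (exact permutation p = 0.5). By the planned measure RIBEYE and the 445-codon form were still lower in old mice without overlap (exact permutation p = 0.1 each). RIBEYE differs from the others by a first exon of 1731 nt, but the CtBP2 forms differ only by short upstream exons and by the end of the last exon (731 and 768 nt), so few reads tell them apart. Over all member transcripts, 27 of 31 were tested, 1 was lower and none was higher in limma (3 higher and 4 lower at an unadjusted p under 0.05). Lower calls were 0.199% and higher calls 0.549% of the 38764 transcripts tested.

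**Figure D3:**
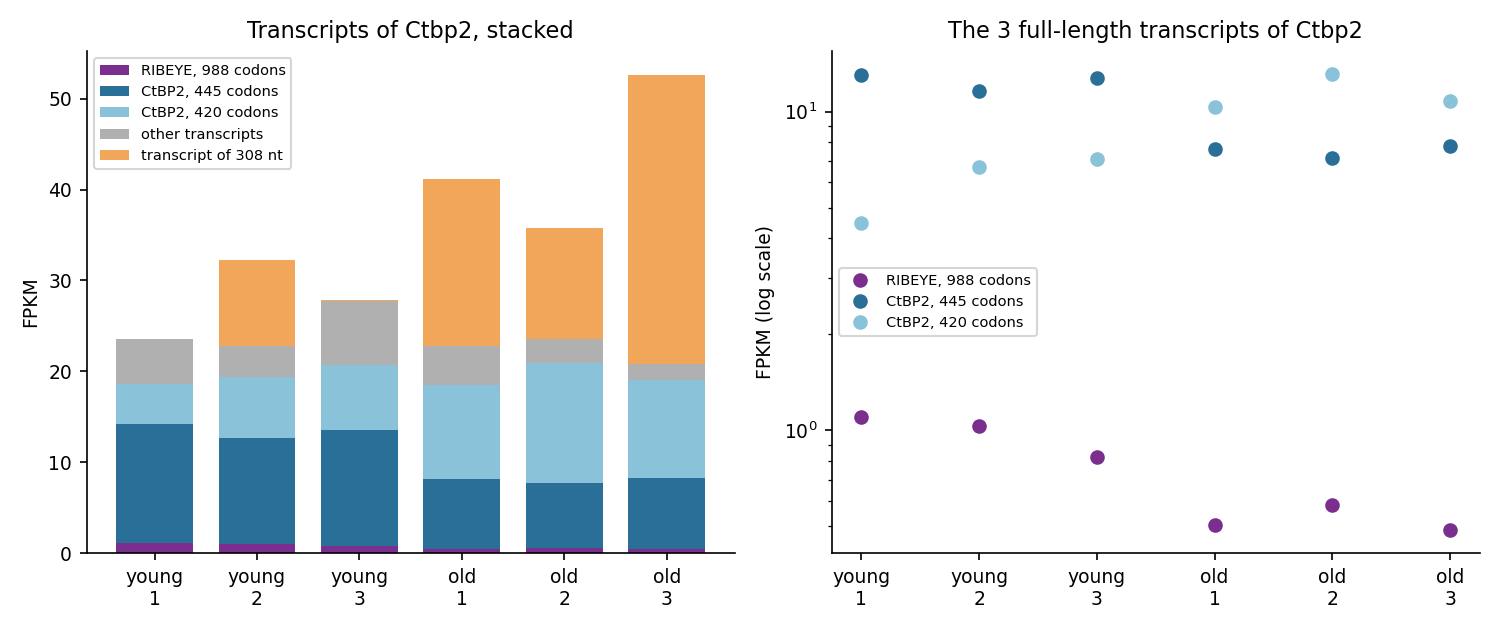
Left, FPKM of the Ctbp2 transcripts stacked in each sample, with the transcript of 308 nt (orange) on top. Right, the 3 full-length transcripts on a log axis, where in old mice RIBEYE (purple) and the 445-codon form (dark blue) are lower and the 420-codon form (light blue) is higher in every sample.

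Levels were compared between genes per length, on transcripts of at least 500 nt. In young mice Ctbp2 was highest (24.7 FPKM), followed by Cacnb2 (9.13), Cacna1d (7.96), Cabp2 (7.17), Otof (6.80), Slc17a8 (4.54), Rims2 (2.94) and Bsn (1.12 FPKM). Cacna1d, Cabp2 and Otof overlapped over their young samples. In old mice the order was Ctbp2 (22.4), Cacna1d (7.29), Cabp2 (6.86), Cacnb2 (6.66), Otof (5.33), Slc17a8 (3.25), Rims2 (1.61) and Bsn (0.522 FPKM). Cacnb2 was thus above Cacna1d in all young samples, and the pair overlapped in old mice.

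In a mixed tissue, fewer cells of a type and less RNA per cell cannot be told apart. The marker lists were therefore read beside the 8 genes. Of 18 hair cell markers shared by inner and outer hair cells, 6 were lower and none was higher (10 lower and 1 higher at an unadjusted p under 0.05, limma), with a median log2 change of -0.61. The most abundant of these, Calb2 and Pvalb, are also made by spiral ganglion neurons. Of 14 spiral ganglion neuron markers, 10 were lower, and their summed level was 644 to 1228 FPKM in young and 431 to 467 FPKM in old mice, lowest among the young in young 3. Of 8 outer hair cell markers 3 were lower, with Ocm at 135 ± 41.0 FPKM in young and 58.4 ± 11.4 FPKM in old mice (SD, n = 3). Of 6 inner hair cell markers, 5 were tested, and Shtn1 was higher and Slc7a14 lower. Their log2 change was below 0 for 3 and above 0 for 2, with a median of -0.37. The summed level was 51.4 to 57.3 FPKM in young and 49.3 to 56.8 FPKM in old mice. Tbx2 held the largest part of this sum, with means of 24.9 FPKM in young and 27.1 FPKM in old mice. The part of RNA from other cell types in this sum was not tested. Fgf8, a defining marker of inner hair cells, was listed at 0 in 5 of 6 samples. Supporting cell markers (3 of 10 higher), Schwann cell markers (3 of 6 lower) and macrophage markers (7 of 8 higher, Lyz2 at 72.7 and 450.2 FPKM) also differed. No central glia marker (5 tested) or skeletal muscle marker (4 tested) passed.

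Set against the mean log2 level of the shared hair cell markers, which differed by -0.57 in old mice, 5 of the 8 genes lay higher in old mice and 3 lay lower. Otof stood 0.24 higher relative to that mean in old than in young mice, without overlap between the ages (exact permutation p = 0.1), but by 0.097 and with overlap at a pseudocount of 1 (exact permutation p = 0.5). Cacna1d stood 0.45 higher (exact permutation p = 0.1) and Slc17a8 0.10 higher (exact permutation p = 0.4). Cabp2, with its transcript of 387 nt, stood 0.31 higher (exact permutation p = 0.4). Ctbp2, with its transcript of 308 nt, stood 1.19 higher (exact permutation p = 0.1). Cacnb2, with its transcript of 430 nt, stood at -0.10, Bsn at -0.39 and Rims2 at -0.23, all with overlap. At a pseudocount of 1 Cacnb2 stood at -0.23 without overlap (exact permutation p = 0.1), and Bsn and Rims2 still overlapped. Against the inner hair cell markers, whose mean differed by -0.12, Otof stood at -0.21, Slc17a8 at -0.35 and Cabp2 at -0.13. These directions thus depend on the reference. There Slc17a8, Cacnb2 (-0.55), Bsn (-0.84) and Rims2 (-0.68) were lower and Ctbp2 (0.75) higher without overlap (exact permutation p = 0.1 each). The difference of Cacna1d against the inner hair cell markers was 0.0013, with overlap (exact permutation p = 1.0). Their mean includes Fgf8, at 0.477 FPKM in old 1 and 0 in the other samples, which raises the mean in old 1. The comparison without Fgf8 was not tested. Young 2, the lowest young sample for Otof and Cabp2, was also the lowest young sample for the shared hair cell markers, at 2.36 against 2.68 and 2.55 on the log2 scale.

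Bsn and Rims2 are made by neurons as well as hair cells, and their order over the young samples was that of the neuron markers. Among the old samples, Rims2 and the neuron markers were highest in old 2. Bsn was instead highest in old 1 and lowest in old 3 (0.605, 0.583 and 0.378 FPKM in old 1, 2 and 3). The mean log2 level of the neuron markers was 4.77, 4.98 and 4.22 in young mice and 3.77, 3.90 and 3.77 in old mice, a difference of -0.84. Bsn (-0.96) and Rims2 (-0.80) changed by a like amount, and both were highest in young 2 and lowest among the young in young 3. The part of neuronal RNA in these values was not tested.

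**Figure D4:**
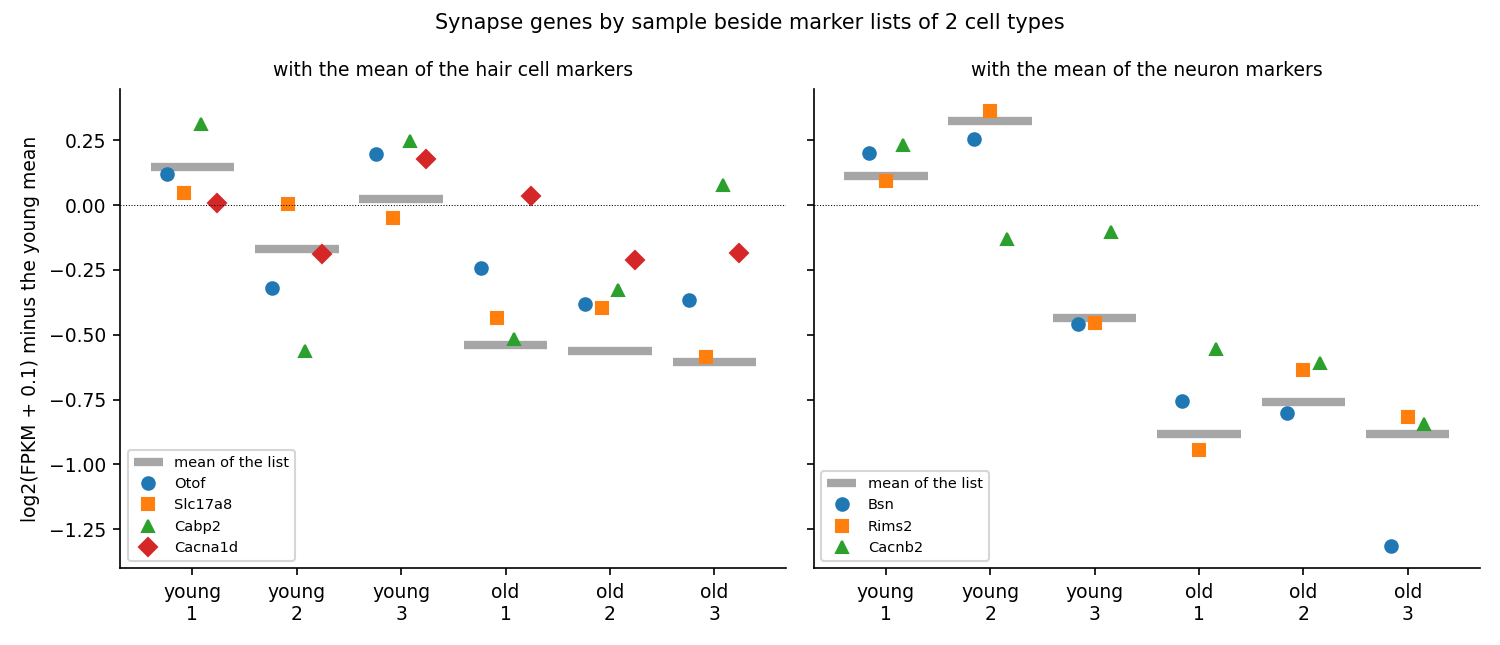
Level of each gene in every sample as log2(FPKM + 0.1) minus its young mean, with grey bars for the mean of the shared hair cell markers (left) or neuron markers (right). In old mice Otof and Cacna1d lie above the hair cell bar, and Bsn and Rims2 stay near the neuron bar in all but old 3, where Bsn is lower. Cacnb2, also on the right and drawn with its transcript of 430 nt, is highest in young 1 and lowest among the young in young 2. On transcripts of at least 500 nt this order was not kept, with 9.01, 9.07 and 9.32 FPKM in young 1, 2 and 3.

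The other genes of the synapse were read from 4 lists of known partners, 67 genes in all. Among them 11 were lower, 1 was higher and 55 did not pass, with a median log2 change of -0.34. Over all genes tested, lower calls were 3.68% and higher calls 5.41%. The old samples lay entirely below the young in 39 partners and entirely above in 4, against 16.0% and 17.5% of all genes. The count of lower genes depended on each sample: it was 21 without young 3, and 0 or 1 without any other.

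Of 15 genes listed with calcium channel subunits and calcium-binding proteins, 1 was lower (Kcnma1) and 1 was higher (Ush1c). None of the calcium channel subunit, Cabp or calmodulin genes in this list passed. Kcnma1, the BK potassium channel that shortens the inner hair cell response, fell from 18.0 ± 1.79 to 10.4 ± 1.03 FPKM (SD, n = 3), with a log2 difference of -0.78 (SE 0.12, limma adjusted p = 0.0162). Ush1c, which encodes harmonin, was at 10.4, 11.9 and 14.8 FPKM in young and 16.8, 19.8 and 19.2 FPKM in old mice, and rose by 0.60 on the log2 scale (SE 0.14, limma adjusted p = 0.0450). Cabp1, a calcium-binding relative of Cabp2, was at 25.1 FPKM in young and 12.2 FPKM in old mice and did not pass (limma adjusted p = 0.0567).

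Of 19 other ribbon and active zone scaffolds, 17 had a log2 change below 0 and 1 passed, with a median of -0.50. Rims4, a short RIM, fell from 2.30 ± 0.468 to 0.953 ± 0.164 FPKM (SD, n = 3), with a log2 difference of -1.18 (SE 0.25, limma adjusted p = 0.0347). Rimbp2, which links RIMs to calcium channels, was at 5.19, 2.34 and 2.58 FPKM in young and 0.886, 1.17 and 1.89 FPKM in old mice (log2 change -1.27, limma adjusted p = 0.0795). Pclo, which encodes the bassoon relative piccolo, was at 2.18 FPKM in young and 1.08 FPKM in old mice (log2 change -0.94, limma adjusted p = 0.115).

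Of 22 genes of otoferlin insertion, vesicle recycling and transport, 7 were lower and none was higher (13 lower and none higher at an unadjusted p under 0.05, limma). They were the endocytic genes Dnm1 (log2 change -0.97), Dnm3 (-0.73) and Sh3gl2 (-0.89), the calcium sensor Syt2 (-1.06), the transporters Slc17a6 (-1.23) and Slc17a7 (-1.06), and Dmxl2 (-0.45), which codes for a vesicle-associated protein. VGLUT2 (Slc17a6) and VGLUT1 (Slc17a7) are transporters known mostly from neurons, where Slc17a8 is the hair cell form. Slc17a7 was at 36.7, 47.2 and 24.7 FPKM in young and 16.6, 17.1 and 16.4 FPKM in old mice, and young 3 was again the lowest of the young.

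All 11 postsynaptic and adhesion partners had a log2 change below 0, with a median of -0.64, and 2 passed. These were the AMPA receptor subunits Gria2 (4.51 ± 1.51 FPKM in young and 1.79 ± 0.00422 FPKM in old mice, log2 change -1.23, limma adjusted p = 0.0347) and Gria4 (11.6 ± 3.81 and 5.36 ± 0.362 FPKM, log2 change -1.05, limma adjusted p = 0.0430). Many of these genes are neuronal, and the neuron markers moved with them. The part of that in these values was not tested.

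**Figure D5:**
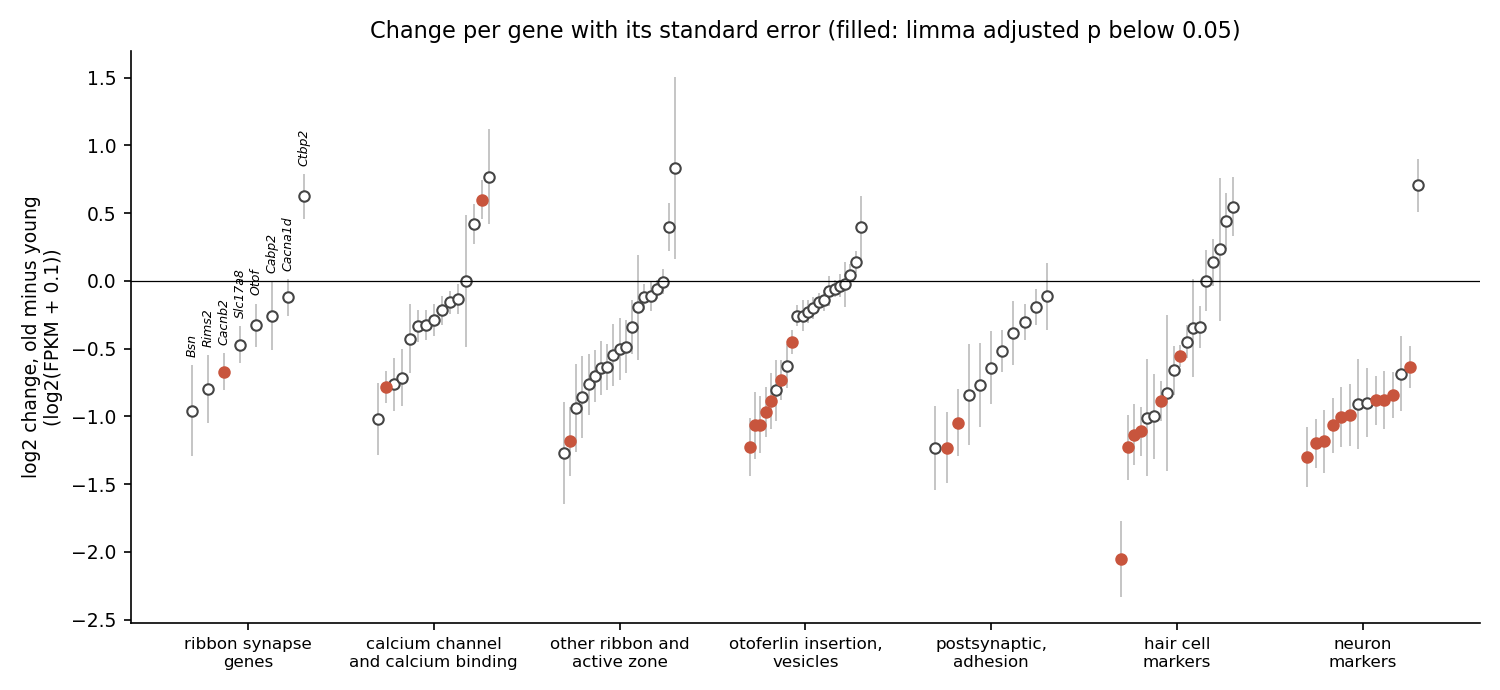
Log2 change from young to old of every tested gene in the ribbon synapse set, the 4 partner lists, the shared hair cell markers and the neuron markers, with standard errors. Filled points passed limma at an adjusted p of 0.05, and most points of the partner lists lie below 0.

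The genes whose level was most like that of Otof over the 6 samples were Zfp65 (r = 0.998), LNC_000149 (r = 0.989), Pcsk6 (r = 0.980), Cyp2f2 (r = 0.979) and Gm33051 (r = 0.978), among 15067 genes with a mean of at least 1 FPKM. These are descriptions over 6 samples that differ in age, library and depth. Zfp65 had means of 9.64 FPKM in young and 8.63 FPKM in old mice. Gm33051 was at 4.74 FPKM in young 1, 5.27 FPKM in young 3 and 0 in the other samples.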

How the data were processed

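The authors sequenced directional RNA libraries of 3 young and 3 old basilar membrane samples, and deposited FPKM per transcript. Per the labels, the submitters' processing notes name CASAVA 1.8, TopHat2 2.0.9, Cufflinks 2.1.1 and Cuffdiff 2.1.1. No counts were used here. Transcripts were matched to GENCODE M21 (55189 of 56671), and FPKM was summed per gene. Values were tested as log2(FPKM + 0.1) in limma 3.58.1 (R 4.3.3), with a variance trend, no block, a minimum mean of 0.1 FPKM and Benjamini-Hochberg adjustment. The pseudocount understates changes of low genes. Fragments were recovered from FPKM steps, and 93.4 to 94.7% of values fell on steps, against 20% by chance. Replicate numbers were taken from sample titles. Text names all 8 genes, every Ctbp2 transcript, other member transcripts with a mean of at least 0.5 FPKM in either group, the partner genes that passed, with the largest changes added to reach 3 per list, and the most abundant markers. A partner gene that this rule names is not reported here. Slc7a14 and Fgf8 were named after their values were seen. The members and lists were chosen with earlier results of these data known. Alternatives covered pseudocount, filter, scaling, transcript choice, weights, block and single samples left out.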

Additional observations from a re-analysis of the deposited data

How the results depend on the processing

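The sum over transcripts of at least 500 nt was chosen after seeing the data, and it turned the log2 change of Ctbp2 to -0.13. Relative to the inner hair cell markers, whose mean includes Fgf8, the difference was -0.21 for Otof, -0.35 for Slc17a8 and -0.13 for Cabp2. Relative to the shared hair cell markers, the difference of Rims2 ran from -0.47 to 0.037 with a sample left out, reversing without young replicate 2. Of the 8 genes, 0 were lower with the most abundant transcript, without a filter or without a variance trend, and 0 to 2 with a sample left out (2 without young replicate 3, Cacnb2 and Rims2). With a minimum mean of 1 FPKM, 1 was higher (Ctbp2, limma adjusted p = 0.0474), and 0 with any sample left out. The 445-codon transcript was the 1 member transcript called, with 0 left without a variance trend and 0 with any sample left out. Over all genes 616 were higher and 292 lower without a filter, 271 and 121 without a variance trend, and 44 to 935 and 15 to 821 with a sample left out. Of the partners, 17 were lower with sample weights, 17 with a minimum mean of 1 FPKM, 18 on transcripts of at least 500 nt, 3 without a filter, 0 without a variance trend and 0 to 21 with a sample left out. The 1 higher partner became 0 with the most abundant transcript, without a filter and without a variance trend, and 0 to 1 with a sample left out. The causes were not tested.

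After the group mean of each gene was subtracted, same-numbered young and old samples had correlations of 0.02, -0.04 and 0.01. Differently numbered samples had correlations of -0.05 to 0.04. The sample titles name no pairing, and such deviations among 3 samples cannot settle whether there was any. With the replicate block, 0 of the 8 genes, 410 higher and 265 lower genes, 5 lower and 0 higher partners and 0 member transcripts were called. RIBEYE rested on an estimated 20.8 to 47.8 fragments per sample, which limits its precision.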
